A study of Mus musculus with 79 samples.

Results

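Synapse-forming neurons hold their contacts together with adhesion proteins that reach across the cleft, and 51 genes for such proteins were followed here across dopaminoceptive neurons of the mouse brain. They were chosen by name, as 14 families (neurexins, neuroligins, LRRTM, SLITRK, LRFN/SALM, FLRT, contactins, contactin-associated CASPR proteins, LAR receptor phosphatases, cerebellins, C1q-like proteins, NGL, SynCAM and IL1RAPL), and all 51 were among the 25899 genes listed. The measurement was ribosome-bound mRNA, pulled down by bacTRAP: a bacterial artificial chromosome (BAC) transgene, with the dopamine D1a or the D2 receptor promoter, drives eGFP (a green fluorescent protein) joined to the N-terminus of L10a, a ribosomal protein, so an antibody to GFP can collect ribosomes of the marked cells from a homogenate. All mice carried 1 of these transgenes as heterozygotes on C57BL/6J, and the labels name no treatment. Mouse age is not given in the sources used here, and a D2 prefrontal cortex group was not analysed here.

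Of the 79 libraries, 15 came from D1 neurons and 16 from D2 neurons of dorsal striatum (punched), 15 from D1 and 14 from D2 neurons of ventral striatum (punched from nucleus accumbens), and 19 from D1 neurons of dissected prefrontal cortex. Each library pooled tissue of 3 mice of both sexes, with the sexes given only in part for 2 prefrontal cortex libraries. Whether a given mouse contributed tissue to more than 1 region is not stated, so p-values measure the spread between pools. The transgene marks every cell in the punch that uses the promoter, whichever type it is, and transcripts of unmarked cells can be carried along. A lower value of a gene can therefore mean fewer marked cells that use it or less of its mRNA on ribosomes in each cell, and these cannot be told apart in bulk libraries.

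In textbook terms, presynaptic neurexins and LAR-type receptor phosphatases act as hubs that bind many different postsynaptic partners. Neuroligins and LRRTM proteins bind neurexins, SLITRK, IL1RAPL and some LRFN and NGL proteins bind the phosphatases, and FLRT proteins bind latrophilins. Cerebellins and C1q-like proteins are secreted and bridge receptors on both sides, while contactins, CASPR and SynCAM proteins carry immunoglobulin or neurexin-like domains and also act along axons. Striatal projection neurons come in a D1 and a D2 kind that send axons to different targets and receive most of their excitatory synapses from cortex and thalamus.

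Reads in genes ran from 7.35 to 30.8 M (mega) per library, with a median of 17.5 M. Values are CPM as deposited, a gene's reads scaled to a common library total, and 1 read was worth 0.0124 to 0.0466 CPM, so a level under about 0.05 CPM rests on single reads. Library names begin with a code (BdP, EM, JAG or OdP) whose meaning is not stated and which was treated as a possible batch. EM libraries made up 11, 8, 11, 8 and 15 libraries of the groups in the order above, and all 8 remaining D2 dorsal striatum libraries were OdP against 0 in D1 dorsal striatum, so values within EM libraries alone are given for many of the results. D1 and D2 marker genes followed the labels, with 3 of 3 tested markers of each kind called in the labelled direction in both striatal regions. The summed level of the 3 D1 markers had a median of 442 CPM in D1 dorsal and 355 CPM in D1 ventral striatum but 24.3 CPM in D1 prefrontal cortex, near the 30.3 CPM of D2 dorsal striatum. Of 49 adhesion genes, 20 were lowest in D1 dorsal striatum replicate 4 among its group and 15 in replicate 13, 23 in D1 ventral striatum replicate 6, and 18 in D1 prefrontal cortex replicate 4; in any other library at most 13 were. The counts called were taken again without each of these 4 libraries, a choice made after seeing the data. For the dorsal receptor comparison they were 25 and 27 of 45 (24.7% and 32.4% of all genes), against 24 (25.9%) with all libraries. For the ventral one the count was 26 of 45 (45.8%), against 28 (47.7%). Without the cortical library 28 of 47 genes were called against D1 dorsal (54.3% of all genes) and 34 of 46 against D1 ventral striatum (62.7%). With all libraries 29 (54.8%) and 35 (62.8%) are reported.

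Levels differed widely within the set. Per kilobase of exon, Lrrc4c, the receptor for netrin-G1, had the highest mean level in every group, from 24.3 CPM per kb in D1 prefrontal cortex to 40.3 in D2 ventral striatum. Next came the SynCAM gene Cadm3 in D1 dorsal striatum and D1 prefrontal cortex, Lrrtm2 in D2 dorsal striatum and Lrrtm3 in both ventral groups. At the other end, 2 secreted C1q-like genes were close to absent: C1ql1 ran from 0 to 0.659 CPM and C1ql2 from 0 to 0.315 CPM over all libraries. These 2 passed the filter on low values (at least 1 CPM in as many libraries as the smaller group) in no comparison. Another 39 passed it in all 6 comparisons of 2 groups, and 10 passed in some only (Slitrk6, Lrfn1, Lrfn2, Cntn5, Cntnap4, Cbln1, Cbln2, Cbln4, C1ql3 and Il1rapl2). By mean CPM, D1 prefrontal cortex was the highest group for 19 of the 51 genes, D2 dorsal striatum for 14, D2 ventral striatum for 9, D1 dorsal striatum for 6 and D1 ventral striatum for 3. The heatmap of the 51 genes over 79 libraries shows these differences library by library.

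**Figure D1:**
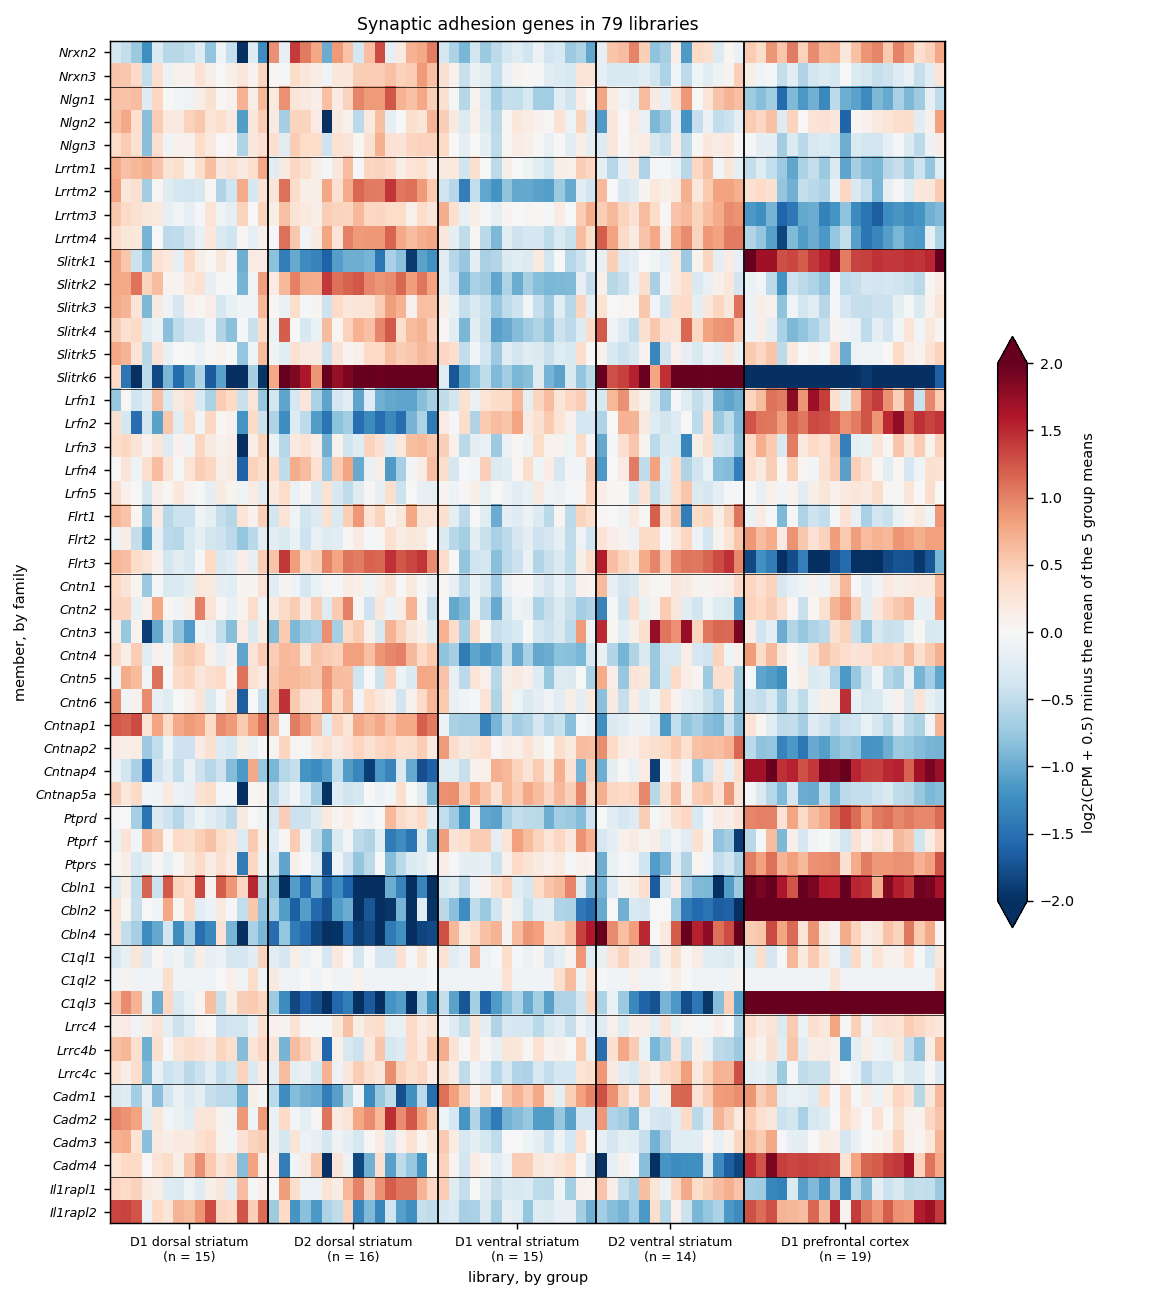
Each row is 1 adhesion gene, grouped by family, and each column 1 of the 79 libraries, grouped by receptor and region; colour is log2(CPM + 0.5) minus the mean of the 5 group means, capped at 2 in size. Slitrk6 is red in both D2 groups, and Slitrk1, Cbln1, Cbln2 and C1ql3 are red in D1 prefrontal cortex.

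The first comparison asked which adhesion genes differ between D1- and D2-marked neurons of dorsal striatum. Slitrk6, a leucine-rich-repeat protein of the SLITRK family, was the lowest in D1, and the secreted bridges Cbln1, C1ql3 and Cbln2, the IL1RAPL protein Il1rapl2 and Slitrk1 were the highest in D1. Of 45 genes tested, 24 were called (adjusted p under 0.05), where 25.9% of all genes tested were called. The 24 divided into 10 higher in D1 (12.8% of all genes) and 14 lower (13%), and 7 differed at least 2-fold (3.36%). Of the 5 that were at least 2-fold higher in D1, Cbln1, C1ql3, Il1rapl2 and Cbln2 had D2 means of 0.311 to 0.406 CPM, so they passed the filter mainly through D1. Slitrk6 had a D1 mean of 0.501 CPM and passed it mainly through D2. The 2-fold count is therefore a description only. Scaled to reads in genes, 11 adhesion genes were higher and 14 lower, beside 1711 and 1153 of all genes where 1424 and 1447 are reported. The median log2 difference of the 45 was -0.18 beside 0.02 over all genes tested. Within EM libraries 16 of the 24 were called, each in the same direction. These libraries are part of the full data and the 24 were already called there, so this is no separate test. Of all genes tested within EM libraries 12.3% were called, which is not a share of genes already called. Each log2 difference was taken between values of log2(CPM + 0.5), so changes of low genes are understated.

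In ventral striatum 28 of 45 genes tested were called between D1 and D2 (47.7% of all genes were), 6 higher in D1 (24.1%) and 22 lower (23.6%), with 4 at least 2-fold (3.62%). Scaling to reads in genes moved this split to 10 higher and 17 lower, and that of all genes from 2751 and 2692 to 3702 and 1898. Slitrk6 was again the lowest in D1, followed by Flrt3, a partner of latrophilins, and Lrrtm2, a partner of neurexins. Cadm4, a SynCAM protein, was the highest. The median log2 difference was -0.23 beside 0.02 over all genes. Within EM libraries, part of the same data, 20 of the 28 were called in the same direction. Of all genes tested there 40.1% were called, which is not a share of genes already called. Slitrk6 had a D1 mean of 0.784 CPM and passed the filter mainly through D2, so the 2-fold count is a description only. The dorsal and ventral comparisons use different libraries: of 42 genes tested in both, 13 were lower in D1 in both regions (10.2% of 10942 genes tested in both), 4 were higher in both (8.87%; Cbln1, Cadm4, Ptprf and Ptprs), and 1, Slitrk1, was higher in dorsal and lower in ventral striatum (0.183% were called in opposite directions).

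Marker levels of other cell types and the share of reads in genes moved with receptor. The summed level of 4 markers of cortical glutamatergic neurons (Slc17a7, Neurod2, Neurod6 and Tbr1) was 23.9 to 107 CPM (median 78.9) in D1 and 0.928 to 27.9 CPM (median 6.10) in D2 dorsal striatum. In ventral striatum it was 13.7 to 92.1 CPM (median 53.4) in D1 and 2.79 to 66.4 CPM (median 9.21) in D2. All 4 were called higher in D1 in both regions, and none was at 0 in every library of a group; in D1 prefrontal cortex the sum was 448 to 772 CPM. With this sum as a covariate, 4 of the 24 dorsal genes were still called (Slitrk6, Nrxn2, C1ql3 and Il1rapl2), 8 of the 24 had the other sign without being called (Nlgn1, Lrrtm2, Slitrk4, Ptprf, Ptprs, Lrrc4c, Cadm4 and Il1rapl1), and over all genes the called count went from 2871 to 148. Since the sums of the receptor groups overlapped only between 23.9 and 27.9 CPM in dorsal striatum, the sum and the receptor cannot be told apart there. In ventral striatum 9 of the 28 were still called, 1 had the other sign without a call (Cbln4), and over all genes the called count went from 5443 to 1424. Markers of GABA interneurons summed to 13.6 to 57.7 CPM in D1 and 3.32 to 24.5 CPM in D2 dorsal striatum (3 of 4 tested higher in D1), and to 10.5 to 36.8 CPM in D1 and 9.45 to 33.9 CPM in D2 ventral striatum (0 of 4 called higher and Lhx6 lower, at -0.52). Markers of oligodendrocytes were lower in D1 (2 of 4 tested dorsally, 3 of 3 ventrally), as were those of cholinergic interneurons (1 of 1 and 3 of 3); their part was not tested. The share of reads in genes was taken as the part of the library total behind the deposited CPM that the listed genes held. What that total counts is not given. In ventral striatum this share was 35.1% ± 1.64 (SD, n = 15) for D1 libraries and 38.0% ± 1.5 (SD, n = 14) for D2 libraries. With that share as a covariate 9 of the 28 were called (Slitrk6, Flrt3, Lrrtm2, Lrrtm4, Nrxn2, Ptprd, Flrt2, Cadm4 and Ptprf). Cntn1 had the other sign without a call, and over all genes that covariate took the called count from 5443 to 1218. In dorsal striatum the shares were 35.4% ± 2.45 (SD, n = 15) for D1 and 36.8% ± 2.01 (SD, n = 16) for D2 libraries, and with the covariate 18 of the 24 were called, while over all genes the count went from 2871 to 2278.

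**Figure D2:**
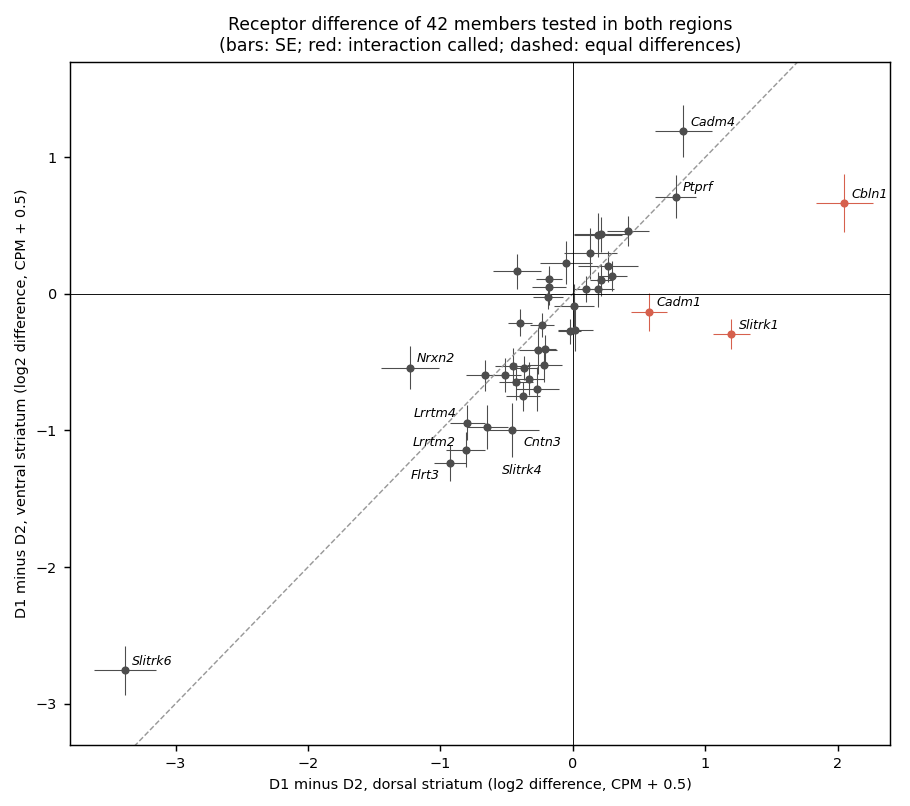
Each point is 1 of 42 adhesion genes tested in both regions: D1 minus D2 in dorsal striatum on the horizontal axis and in ventral striatum on the vertical axis, both as log2 differences of CPM + 0.5, with SE as bars; red points have a called difference between regions. Slitrk6 lies far from the rest at -3.38 and -2.76, and Slitrk1, Cbln1 and Cadm1 lie off the dashed line of equal differences.

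Region was compared next, dorsal minus ventral striatum, for D1 and D2 separately. Calls were made for 23 of 46 genes tested in D1 neurons (34.6% of all genes), 18 higher in dorsal striatum (10.1%) and 5 lower (24.5%), with 4 at least 2-fold (3.45%). The D2 comparison gave calls for 15 of 42 (28.5%), with 10 higher (7.93%) and 5 lower (20.6%), with 5 at least 2-fold (4.15%). Cntnap1, the CASPR protein of axonal paranodes, was the highest in dorsal striatum in both, and the cerebellin Cbln4 was the lowest in both. The median log2 difference of the adhesion genes was 0.18 in D1 and 0.19 in D2, where the median over all genes was -0.12 in each. The background split depended on the scaling: with median-ratio scaling 1663 genes were higher and 1642 lower in D1 (1144 and 2774 as reported), and 1398 and 1336 in D2 (887 and 2302). The adhesion genes then gave 22 higher and 5 lower in D1 and 15 and 5 in D2. With quantile normalization they gave 17 and 5 in D2, beside 1444 and 1479 of all genes. Of the genes already called, 21 of the 23 and 12 of the 15 were called in the same direction within EM libraries, which is no separate test. Of all genes tested there 31.3% and 19.8% were called, which are not shares of genes already called. Cbln4 had dorsal means of 0.754 CPM in D1 and 0.167 CPM in D2 and passed the filter mainly through ventral striatum, so the 2-fold counts that include it are a description only. The 2 comparisons share no libraries: of 41 genes tested in both, 7 were higher in dorsal striatum in both (5.43% of 10956 genes tested in both), namely Nrxn3, Lrrtm1, Lrrtm2, Slitrk2, Cntn4, Cntnap1 and Cadm2. Another 3 were lower in both (12.7%; Cbln4, Cadm1 and Cntnap5a), and Slitrk1 went opposite ways (0.301%). Of 4 tested GABA interneuron markers, 3 were higher and 1 lower in dorsal striatum in D1, and 3 were lower in D2. Of 3 cholinergic interneuron markers tested in D2, Chat (-0.70) and Lhx8 (-1.14) were lower in dorsal striatum, where the sum of the 3 was 2.89 to 14.2 CPM against 6.63 to 15.1 CPM ventrally. All 3 D2 neuron markers were lower in dorsal striatum in D1 and higher in D2, and 4 and 5 of the 5 striatal projection neuron markers were higher in D1 and D2; their part was not tested.

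D1 prefrontal cortex was set against each D1 striatal group; both comparisons use the same cortical libraries. Against dorsal striatum 29 of 47 genes tested were called (54.8% of all genes), 15 higher in cortex (32.3%) and 14 lower (22.5%), with 15 at least 2-fold (16%). The comparison with ventral striatum gave calls for 35 of 47 (62.8%), with 24 higher (27.7%) and 11 lower (35.1%), with 16 at least 2-fold (14.2%). C1ql3 and Cbln2 had the largest log2 differences towards cortex, and Flrt3 and Lrrtm3 were the lowest in cortex against both striatal regions. D1 prefrontal cortex replicate 6 stood apart with a summed level of 5 striatal projection neuron markers of 380 CPM against a group median of 91.0. Without it, a choice made after seeing the data, 28 and 34 genes were called, beside 54.3% and 62.8% of all genes. Of the genes already called, 27 of the 29 and 35 of the 35 were called in the same direction within EM libraries, which is no separate test. Of all genes tested there 52.5% and 63.7% were called, which are not shares of genes already called. Cntnap4, Lrfn2 and Cbln4 had D1 dorsal means of 0.892, 0.853 and 0.754 CPM, and C1ql3 and Il1rapl2 had D1 ventral means of 0.985 and 0.429 CPM. These genes passed the filter mainly through cortex, so the 2-fold counts are a description only. By edgeR on the recovered reads 14 were higher and 16 lower against dorsal striatum, beside 3119 and 3472 of all genes where 3766 and 2622 are reported.

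Markers of other cell types moved with the cortical comparisons. All 5 astrocyte markers were called higher in cortex against both striatal regions, with a summed level of 9.40 to 55.4 CPM in cortex, 3.34 to 15.9 CPM in D1 dorsal and 2.12 to 8.77 CPM in D1 ventral striatum. All 5 markers of GABA interneurons and all 4 of cortical glutamatergic neurons were also higher. All 5 striatal projection neuron markers were lower, and their sum was 70.9 to 380 CPM in cortex, 1620 to 3266 CPM in D1 dorsal and 1448 to 1861 CPM in D1 ventral striatum. The part of these cells in the differences was not tested.

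**Figure D3:**
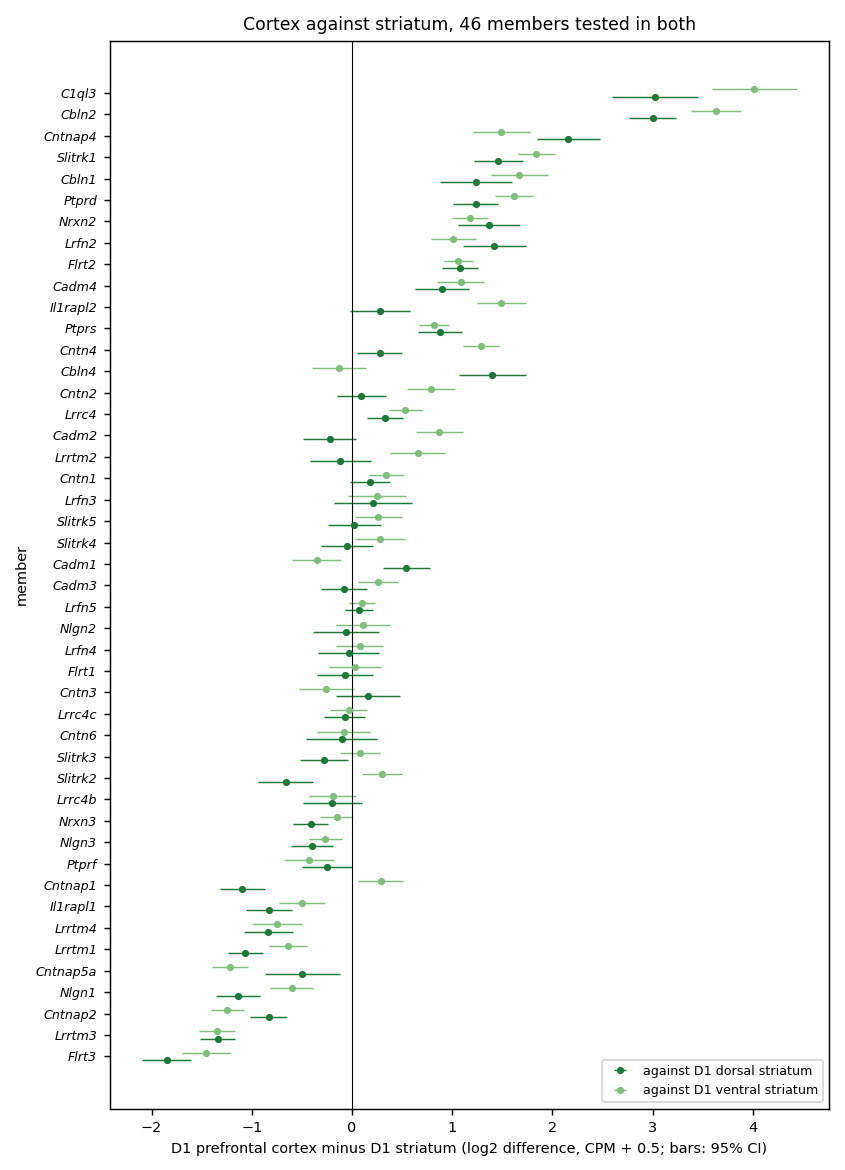
Each row is 1 of 46 adhesion genes tested in both comparisons, ordered by the sum of the 2 values; points give the log2 difference of D1 prefrontal cortex from D1 dorsal striatum (dark) and from D1 ventral striatum (light), with 95% confidence intervals as bars. C1ql3 and Cbln2 lie at or above 3.00 in both, and Flrt3 and Lrrtm3 lie at or below -1.34 in both.

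Whether the D1 minus D2 difference itself differs between dorsal and ventral striatum was tested as an interaction over the 4 striatal groups. Of 48 adhesion genes tested, 7 were called (2.64% of all genes were). The D1 minus D2 difference was larger in dorsal striatum in the 7 (1.93% of all genes) and smaller in 0 by limma (0.707%), and an unadjusted p under 0.05 was reached by 12 (14.9% of all genes). Il1rapl2 and C1ql3 had mean levels above 1 CPM, the level of the filter, in D1 dorsal striatum alone among the 4 striatal groups (1.73 and 2.42 CPM), and Cbln2 had its highest striatal mean there (1.86 CPM). Such low genes could enter the test mainly through the group where they are high, so the count and its direction are a description only. Scaled to reads in genes 6 were called, all larger dorsally, and the split of all genes went from 229 larger and 84 smaller to 191 and 119. The 7 were Slitrk1, C1ql3, Cbln1, Cbln4, Il1rapl2, Cbln2 and Cadm1. With EM libraries alone 4 were called (Slitrk1, C1ql3, Cbln1 and Cbln2), beside 1.95% of all genes. By edgeR on the recovered reads 4 were called (Slitrk1, C1ql3, Cbln1 and Cbln4), beside 2.53% of all genes. With the cortical marker sum as a covariate 6 of the 7 were called, all but Cbln2, and over all genes the called count went from 313 to 494 (4.16%). Markers moved with this interaction as well. All 3 D2 neuron markers were called lower (-2.09 for Adora2a, -1.93 for Penk and -1.40 for Drd2), and their sum was 35.3 to 93.9 CPM in D1 dorsal, 98.2 to 240 CPM in D1 ventral, 2522 to 4458 CPM in D2 dorsal and 1506 to 2706 CPM in D2 ventral striatum. Of 4 tested GABA interneuron markers 2 were called higher, Sst (1.63) and Npy (1.23), and the sum of the 5 listed had medians of 29.4 CPM in D1 dorsal, 17.4 in D1 ventral, 10.1 in D2 dorsal and 20.0 in D2 ventral striatum. Their part was not tested.

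The SLITRK family held the gene with the lowest D1 minus D2 difference in both striatal regions and is given first. For the 2 members the results turn on, and for Cbln4, the 250 bases before the transcription start are printed from RefSeq's GRCm38.p6 promoter table, 5′ to 3′ on the gene's strand (all 3 genes lie on the minus strand); windows were found for 36 of the 51 genes. Capitals mark letters matching 4 motifs searched on both strands: the GC box GGGCGG (in 32.7% of 32817 such windows), the TATA box TATAAA (12.4%), the cAMP response element TGACGTCA (1.55%) and the E-box CAGATG (14.5%).
Slitrk6: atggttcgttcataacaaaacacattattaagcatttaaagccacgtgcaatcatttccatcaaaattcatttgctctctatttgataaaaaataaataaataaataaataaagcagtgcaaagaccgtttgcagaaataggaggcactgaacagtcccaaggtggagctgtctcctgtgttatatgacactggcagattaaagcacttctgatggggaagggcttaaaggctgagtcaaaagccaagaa
Slitrk1: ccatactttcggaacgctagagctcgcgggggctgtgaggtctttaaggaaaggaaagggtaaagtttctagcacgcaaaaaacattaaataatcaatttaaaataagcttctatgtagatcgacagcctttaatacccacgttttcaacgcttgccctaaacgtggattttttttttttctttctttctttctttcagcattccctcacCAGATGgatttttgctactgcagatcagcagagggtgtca
Cbln4: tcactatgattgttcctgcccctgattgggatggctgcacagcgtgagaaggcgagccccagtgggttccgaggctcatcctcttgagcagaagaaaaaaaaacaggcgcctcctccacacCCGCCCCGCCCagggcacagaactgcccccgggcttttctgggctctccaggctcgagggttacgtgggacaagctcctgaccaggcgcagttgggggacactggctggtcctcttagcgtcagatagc
The Slitrk6 window (chr14:110755150-110755399, 37.2% G or C) holds none of these letters, Slitrk1 (chr14:108914240-108914489, 40.4%) holds 1 E-box at position -40 from the start, and Cbln4 (chr2:172043467-172043716, 60.8%) holds 2 overlapping GC boxes at positions -129 and -124. A match is a description of the letters and not of binding. In the GENCODE M21 gene models Slitrk1 (chr14:108908800-108914158), Slitrk6 (chr14:110748580-110755149) and Slitrk5 (chr14:111675097-111683141) lie on chromosome 14.

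Slitrk6 was a D2 gene in both striatal regions. In D2 dorsal striatum it ran at 3.15 to 19.8 CPM (median 9.50) and in D2 ventral striatum at 3.16 to 13.9 CPM (median 8.64). In the D1 groups it ran at 0 to 2.31 CPM (median 0.272) in dorsal striatum, 0.154 to 1.29 CPM (median 0.702) in ventral striatum and 0 to 0.183 CPM (median 0) in prefrontal cortex. Every D2 library exceeded every D1 library of the same region, and the D1 minus D2 log2 difference was -3.38 (SE 0.23, adjusted p = 3.21e-14) dorsally and -2.76 (SE 0.18, adjusted p = 1.21e-14) ventrally. Within EM libraries the differences were -3.07 and -2.41. Slitrk6 passed the filter mainly through the D2 libraries in both regions, so these receptor differences and their p-values are a description only. Between the D2 regions no difference was called (0.12, 95% interval -0.31 to 0.56, adjusted p = 0.714).

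Slitrk1, which binds LAR-type phosphatases, had another order. D1 prefrontal cortex was highest at 43.3 to 95.9 CPM (median 57.1), above every library of the striatal D1 groups, by 1.46 (SE 0.12, adjusted p = 1.52e-13) against dorsal and 1.84 (SE 0.09, adjusted p = 4.60e-21) against ventral striatum. Among the striatal groups D2 dorsal striatum was lowest at 5.20 to 13.2 CPM (median 9.59), and D1 dorsal striatum ran at 10.4 to 35.9 CPM (median 23.4). The D1 and D2 ventral groups ran at 12.2 to 23.8 CPM (median 17.2) and 12.4 to 29.2 CPM (median 19.3) and overlapped. The receptor difference was therefore 1.20 (SE 0.14, adjusted p = 2.20e-08) in dorsal striatum and -0.29 (SE 0.11, adjusted p = 0.0243) in ventral striatum, an interaction of 1.49 (SE 0.18, adjusted p = 1.82e-08). Within EM libraries these were 1.15, -0.24 (adjusted p = 0.167, not called) and 1.39 (adjusted p = 2.16e-04). With the cortical marker sum as a covariate the dorsal value was 0.89 and no longer called (adjusted p = 0.221), while the interaction was 1.40 (adjusted p = 3.03e-07). Between regions Slitrk1 was higher in dorsal striatum in D1 (0.38, SE 0.13, adjusted p = 0.0257; not called within EM libraries, adjusted p = 0.136) and lower in D2 (-1.12, SE 0.12, adjusted p = 3.53e-09), with 13 of 14 D2 ventral libraries above every D2 dorsal one.

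Slitrk2 and Slitrk4 were lower in D1 than in D2 in both regions. Slitrk2 was highest in D2 dorsal striatum at 14.7 to 36.0 CPM (median 26.1), where 15 of 16 libraries exceeded every D2 ventral library (8.25 to 16.9, median 12.3), a difference of 1.03 (SE 0.12, adjusted p = 9.53e-09). In D1 it ran at 6.64 to 28.7 CPM (median 15.3) dorsally, 6.16 to 11.7 (median 7.86) ventrally and 5.54 to 14.8 (median 9.65) in cortex, and was higher dorsally by 0.96 (SE 0.14, adjusted p = 1.58e-06). The D1 minus D2 difference was -0.67 dorsally and -0.60 ventrally for Slitrk2, and -0.64 and -0.97 for Slitrk4. With the cortical marker sum as a covariate these were -0.09 and -0.36 for Slitrk2 (adjusted p = 0.936 and 0.167) and 0.44 and -0.59 for Slitrk4 (adjusted p = 0.58 and 0.0886), so the dorsal sign of Slitrk4 turned. Slitrk3, which is known for inhibitory synapses, was lower in D1 in ventral striatum (-0.52) without a call in dorsal striatum (-0.21, adjusted p = 0.235). Slitrk5 was called in neither receptor comparison. As a share of the family's summed CPM, Slitrk6 held 6.30% ± 2.44 (SD, n = 16) and 6.19% ± 1.72 (SD, n = 14) in the D2 groups and at most 1.52% in any D1 library. Slitrk1 held 41.6% ± 3.36 (SD, n = 19) in cortex and 6.40% ± 1.64 (SD, n = 16) in D2 dorsal striatum. Such shares do not depend on how a library was scaled.

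**Figure D4:**
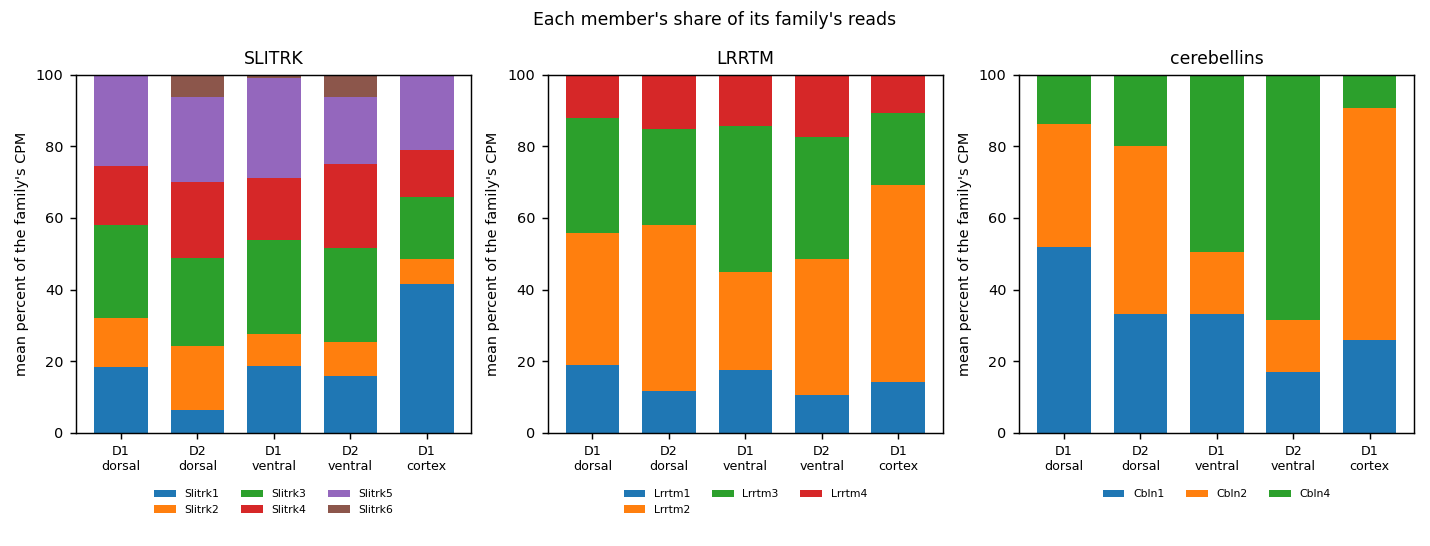
Stacked bars give the mean percent of the family's summed CPM held by each member in the 5 groups, for SLITRK, LRRTM and cerebellins; percents are of reads, so longer genes count more. Slitrk6 is visible only in the D2 groups, Slitrk1 is largest in cortex, and Cbln4 makes up 68.6% ± 20.2 (SD, n = 14) of cerebellin CPM in D2 ventral striatum.

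The secreted bridges held 4 of the 7 genes with an interaction call, where 2.64% of all genes were called. All 4 are low genes for which the filter bears on the call, so the count is a description only. The Cbln4 call ended within EM libraries, and that of Cbln2 by edgeR and with the cortical marker sum as a covariate. Cbln1, a cerebellin that links neurexins to delta glutamate receptors, ran at 1.07 to 6.05 CPM (median 2.58) in D1 and 0 to 0.776 (median 0.280) in D2 dorsal striatum, and each of the 15 D1 libraries exceeded every D2 library. The difference was 2.05 (SE 0.21, adjusted p = 1.13e-09), or 2.11 within EM libraries, and 1.29 without a call when the cortical marker sum was a covariate (adjusted p = 0.228). In ventral striatum the groups overlapped, at 0.751 to 4.05 CPM (median 1.696) in D1 and 0.0746 to 2.41 (median 0.938) in D2, with a difference of 0.67 (SE 0.21, adjusted p = 0.0103) and 0.48 within EM libraries (adjusted p = 0.0964, not called). The interaction was 1.39 (SE 0.30, adjusted p = 0.00308). In D1 prefrontal cortex Cbln1 ran at 3.33 to 10.1 CPM (median 6.80), above dorsal striatum by 1.24 (SE 0.18, adjusted p = 1.11e-07) and above ventral striatum by 1.67 (SE 0.14, adjusted p = 1.19e-13).

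Cbln2, another cerebellin, was mainly cortical. D1 prefrontal cortex libraries held 12.98 to 24.4 CPM (median 18.01), above every striatal library, where the D1 groups ran at 0.817 to 3.40 (median 1.77) dorsally and 0.280 to 1.92 (median 1.07) ventrally. The differences from dorsal and ventral striatum were 3.00 (SE 0.12, adjusted p = 8.40e-24) and 3.63 (SE 0.12, adjusted p = 4.07e-26). D2 dorsal libraries ran at 0.0155 to 1.42 CPM (median 0.252) and D2 ventral ones at 0 to 1.80 (median 0.649), so the dorsal receptor difference was 1.44 (SE 0.18, adjusted p = 7.16e-08), 1.33 within EM libraries. That call ended with the cortical marker sum as a covariate (0.66, adjusted p = 0.506). Cbln2 did not pass the filter in the ventral receptor comparison, and its interaction was 1.13 (SE 0.28, adjusted p = 0.0119).

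Cbln4 was a ventral gene among the cerebellins. It ran at 1.57 to 8.90 CPM (median 4.41) in D2 ventral and 0 to 0.696 (median 0.0912) in D2 dorsal striatum, with no overlap, and at 1.63 to 5.71 CPM (median 2.63) in D1 ventral and 0 to 2.00 (median 0.590) in D1 dorsal striatum, with 13 of 15 ventral libraries above every dorsal one. The dorsal minus ventral difference was -2.90 (SE 0.19, adjusted p = 2.44e-14) in D2 and -1.53 (SE 0.19, adjusted p = 4.38e-08) in D1, and -2.49 and -1.47 within EM libraries. In ventral striatum Cbln4 was lower in D1 by a log2 difference of -0.55 (SE 0.20, adjusted p = 0.0223), which was -0.42 and not called within EM libraries (adjusted p = 0.101). In dorsal striatum it was too low to be tested between receptors, and the interaction was 1.38 (SE 0.27, adjusted p = 6.47e-04), with 1.02 and an adjusted p of 0.0937 within EM libraries. D1 prefrontal cortex ran at 1.60 to 4.62 CPM (median 2.44), above D1 dorsal striatum by 1.40 (SE 0.17, adjusted p = 1.45e-09) and not called against D1 ventral striatum (-0.13, adjusted p = 0.413).

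C1ql3, a C1q-like protein that binds the adhesion receptor Bai3, had the largest log2 difference towards cortex in both comparisons. Its cortical libraries ran at 11.9 to 56.8 CPM (median 20.8) and spread widely, and all 19 exceeded every D1 striatal library. D1 dorsal striatum ran at 0.730 to 4.16 CPM (median 2.74), D2 dorsal striatum at 0 to 1.00 (median 0.314), D1 ventral striatum at 0.240 to 2.80 (median 1.02) and D2 ventral striatum at 0.135 to 2.89 (median 0.615). Cortex exceeded dorsal striatum by 3.02 (SE 0.21, adjusted p = 5.06e-16) and ventral striatum by 4.01 (SE 0.21, adjusted p = 3.16e-20). In dorsal striatum 14 of 15 D1 libraries exceeded every D2 library, a difference of 1.71 (SE 0.18, adjusted p = 1.53e-09), 1.54 within EM libraries and 1.7 with the cortical marker sum as a covariate (adjusted p = 0.0357). The interaction was 1.46 (SE 0.28, adjusted p = 3.99e-04). In GENCODE M21, 64.2% of the exon bases of C1ql3 lie opposite antisense genes (Gm37811 and Gm37824), and whether counting used the strand is not given, so their reads cannot be told apart.

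**Figure D5:**
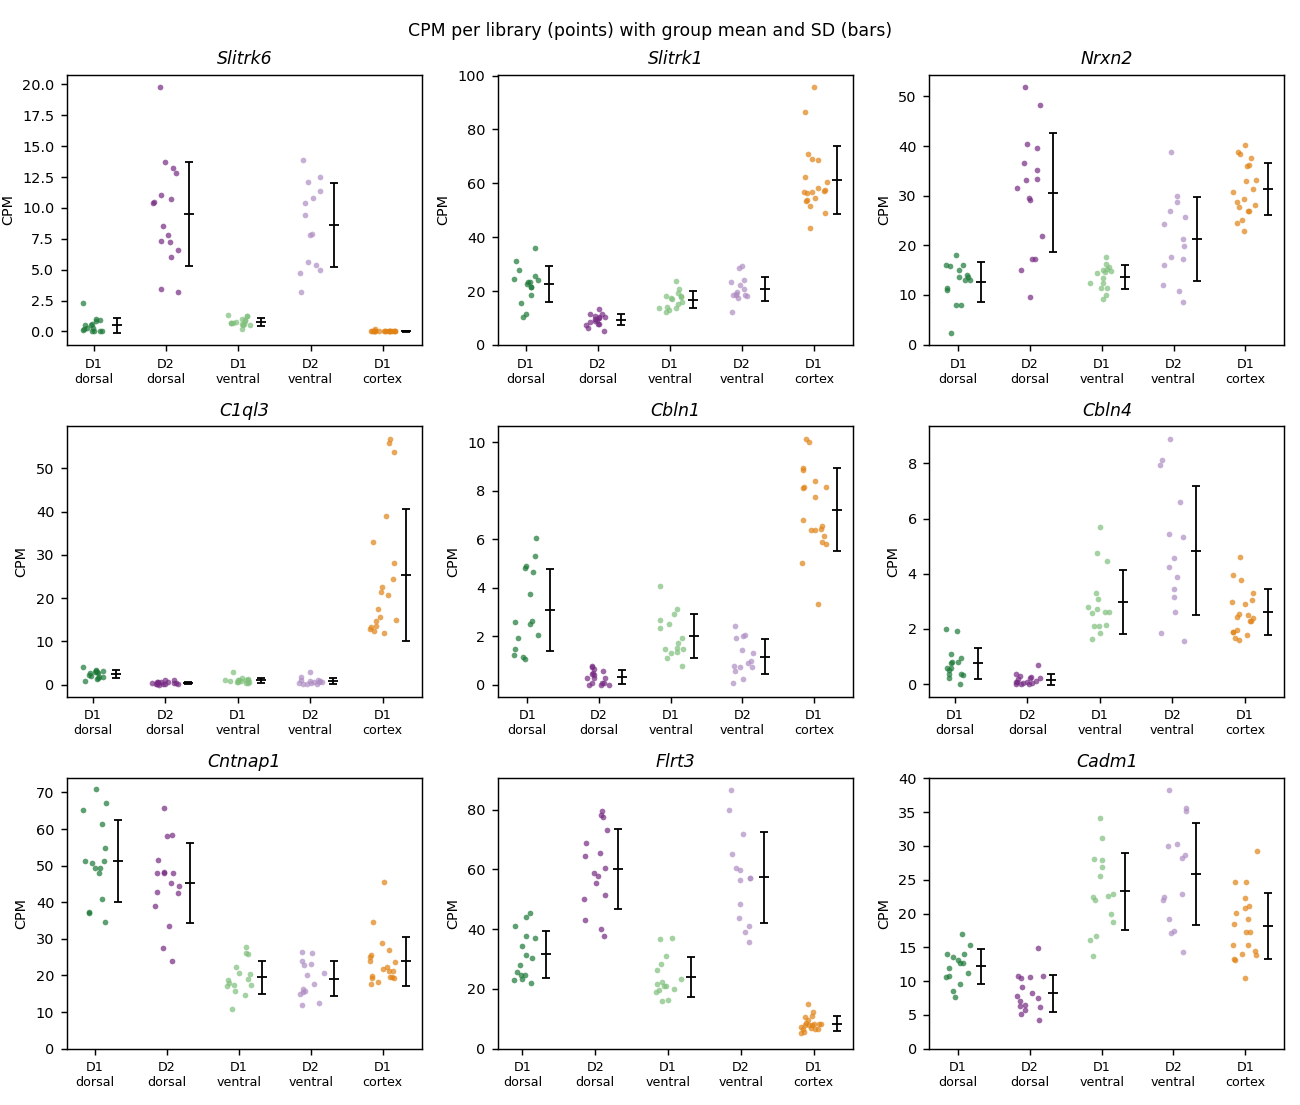
Each point is 1 library and each panel 1 gene, with CPM on a linear axis; the bar beside each group gives its mean and SD (n = 15, 16, 15, 14 and 19 from left to right). Slitrk6 separates D1 from D2 in both regions, Cntnap1 separates dorsal from ventral striatum in D1, and C1ql3, Cbln1 and Slitrk1 are highest in cortex.

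On the presynaptic side, 1 neurexin and all 3 LAR-type phosphatases were called between receptors in both regions. Of all genes tested in both regions, 8.87% were called higher and 10.2% lower in D1 in both. Within EM libraries the ventral call of Nrxn2 and the dorsal calls of Ptprd and Ptprs ended. Nrxn2 ran at 2.39 to 18.1 CPM (median 13.5) in D1 and 9.52 to 51.9 (median 32.3) in D2 dorsal striatum, and 12 of 16 D2 libraries exceeded every D1 library. The D1 minus D2 difference was -1.23 (SE 0.22, adjusted p = 4.76e-05) dorsally and -0.54 (SE 0.16, adjusted p = 0.00578) ventrally, where the groups ran at 9.10 to 17.7 (median 14.5) and 8.58 to 38.9 (median 20.5). Within EM libraries these were -1.25, called, and -0.48, not called (adjusted p = 0.0768). D1 prefrontal cortex ran at 22.8 to 40.3 CPM (median 30.8), with every library above every D1 striatal one, by 1.37 (SE 0.15, adjusted p = 4.13e-10) and 1.18 (SE 0.09, adjusted p = 1.87e-15). Nrxn3 had group means of 111 CPM in cortex to 168 CPM in D2 dorsal striatum, and was called between regions in D1 (0.26) and D2 (0.55) but between receptors in neither region. The D1 call ended without D1 ventral striatum replicate 6 (adjusted p = 0.0577). Nrxn2 made up 7.93% ± 2.59 (SD, n = 15) of the summed CPM of the pair in D1 dorsal striatum, 15.3% ± 5.32 (SD, n = 16) in D2 dorsal striatum and 22.2% ± 3.93 (SD, n = 19) in cortex.

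Of the 3 LAR-type phosphatases, Ptprd was lower and Ptprf and Ptprs were higher in D1 in both striatal regions. Ptprd ran at 28.9 to 60.2 CPM (median 47.2) in cortex, against 8.28 to 26.9 (median 19.4) in D1 dorsal and 10.0 to 21.6 (median 14.4) in D1 ventral striatum, with every cortical library higher, by 1.23 (SE 0.11, adjusted p = 8.51e-13) and 1.61 (SE 0.09, adjusted p = 7.07e-19). The D2 groups ran at 17.4 to 37.5 (median 24.4) dorsally and 18.4 to 33.5 (median 24.6) ventrally, above D1 by smaller steps (-0.38 and -0.75 as D1 minus D2). Ptprf was higher in D1 by 0.78 dorsally and 0.71 ventrally, and Ptprs by 0.42 and 0.46. In dorsal striatum the Ptprd and Ptprs calls ended within EM libraries (adjusted p = 0.298 and 0.217). With the cortical marker sum as a covariate the dorsal differences of Ptprf and Ptprs were not called and had the other sign (adjusted p = 0.999 and 0.932).

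Of the 7 neuroligins and LRRTM proteins, postsynaptic partners of neurexins, 3 were lower in D1 in dorsal striatum (Nlgn1, Lrrtm2 and Lrrtm4). Among all genes tested dorsally, 13% were called lower in D1. Ventrally 4 of the 7 were lower in D1 (those 3 and Lrrtm3) and 1 higher (Nlgn2). Among all genes tested in ventral striatum, 23.6% were called lower and 24.1% higher in D1. Lrrtm2 ran at 21.0 to 47.8 CPM (median 27.2) in D1 and 44.5 to 97.7 (median 64.0) in D2 ventral striatum, with 12 of 14 D2 libraries above every D1 library, a difference of -1.14 (SE 0.13, adjusted p = 1.45e-08), or -1.08 within EM libraries. In dorsal striatum it ran at 34.2 to 96.8 CPM (median 46.7) and 60.1 to 149.8 (median 98.1) and differed by -0.81 (SE 0.15, adjusted p = 7.34e-05), a value that was 0.16 with the cortical marker sum as a covariate (adjusted p = 0.855); cortex ran at 28.2 to 80.0 (median 48.9). Lrrtm4, which binds heparan sulfate proteoglycans, was also lower in D1 in both regions (-0.80 and -0.94). A share of 25.1% of its exon bases lies opposite the antisense gene Gm4409, whose mean level was 12.5 CPM in D1 and 21.1 CPM in D2 dorsal striatum. Lrrtm1 was called in neither receptor comparison and Lrrtm3 in ventral striatum only (-0.40, -0.21 dorsally).

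Both of these were low in cortex. Lrrtm3 ran at 13.1 to 23.7 CPM (median 17.9) in D1 prefrontal cortex, below every D1 striatal library (37.0 to 61.4, median 48.0 dorsally and 36.6 to 69.8 (median 43.6) ventrally), with log2 differences of -1.34 (SE 0.09, adjusted p = 6.69e-17) and -1.35 (SE 0.09, adjusted p = 5.05e-17). The D2 groups held 45.0 to 66.2 (median 54.4) and 42.5 to 81.0 (median 63.2). Lrrtm1 ran at 9.19 to 16.7 CPM (median 12.5) in cortex, below all 15 D1 dorsal libraries (20.7 to 33.9, median 24.8), a log2 difference of -1.06 (SE 0.09, adjusted p = 8.76e-14), while D1 ventral, D2 dorsal and D2 ventral striatum ran at 13.6 to 27.8 (median 21.1), 16.8 to 30.6 (median 23.6) and 12.7 to 29.7 (median 18.4). Lrrtm1 was also higher in dorsal than ventral striatum in D1 (0.42) and D2 (0.31). Within the family, Lrrtm2 took 54.8% ± 5.36 (SD, n = 19) of the summed CPM in cortex and 27.2% ± 1.64 (SD, n = 15) in D1 ventral striatum.

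Among neuroligins, Nlgn1, known from excitatory synapses, showed the larger differences. It ran at 10.2 to 26.8 CPM (median 16.2) in cortex against 25.5 to 50.2 (median 33.8) in D1 dorsal striatum, where 14 of 15 libraries lay above all cortical ones, a difference of -1.14 (SE 0.11, adjusted p = 4.13e-12). The other groups ran at 18.9 to 38.6 (median 24.6) in D1 ventral, 33.8 to 73.3 (median 46.6) in D2 dorsal and 27.5 to 56.4 (median 38.1) in D2 ventral striatum. Nlgn1 was lower in D1 than D2 in ventral (-0.62) and in dorsal striatum (-0.33), the latter not called within EM libraries (adjusted p = 0.252). With the cortical marker sum as a covariate neither was called, and the dorsal sign turned, at -0.38 ventrally and 0.46 dorsally (adjusted p = 0.171 and 0.408). Nlgn2, the neuroligin of inhibitory synapses, was called only between receptors in ventral striatum (0.44), without a call within EM libraries (adjusted p = 0.122). Nlgn3 was lower in cortex than in both D1 striatal regions (-0.40 and -0.27) and higher in dorsal than ventral striatum in D2 (0.30); 41.2% of its exon bases are shared with Gm21986 on the same strand.

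FLRT proteins, which bind latrophilins, included the gene with the lowest log2 difference in cortex. Flrt3 ran at 5.25 to 14.9 CPM (median 8.04) in D1 prefrontal cortex, below every D1 striatal library, with log2 differences of -1.85 (SE 0.12, adjusted p = 5.45e-17) against dorsal and -1.46 (SE 0.12, adjusted p = 4.68e-14) against ventral striatum. In the striatum Flrt3 was lower in D1 than in D2 but well above the filter in both. In dorsal striatum it ran at 37.7 to 79.5 CPM (median 59.7) in D2 and 22.1 to 45.5 (median 30.3) in D1. In ventral striatum it ran at 35.7 to 86.5 (median 57.1) in D2 and 15.8 to 37.0 (median 21.7) in D1. The groups overlapped, with 13 D2 libraries above every D1 library in each region. The differences were -0.93 (SE 0.12, adjusted p = 2.10e-07) and -1.24 (SE 0.13, adjusted p = 4.24e-09), and -0.88 and -1.19 within EM libraries. With the cortical marker sum as a covariate the dorsal difference was not called. Flrt2 was lower in D1 as well (-0.37 and -0.54) but higher in cortex, by 1.08 and 1.06, with all 19 cortical libraries above every D1 striatal one. Flrt1 was called only between receptors in ventral striatum (-0.41), and that call and the dorsal one of Flrt2 ended within EM libraries (adjusted p = 0.104 and 0.0934).

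LRFN genes code for a family whose members can bind the scaffold PSD-95, and none that was tested was called between receptors or between striatal regions. Lrfn1 was too low to be tested in any of those 4 comparisons, and Lrfn2 in the dorsal receptor comparison and the D2 region comparison. Lrfn2 was called in cortex, at 2.08 to 4.45 CPM (median 2.89) against 0 to 1.60 (median 0.883) in D1 dorsal and 0.448 to 2.00 (median 1.24) in D1 ventral striatum, with every cortical library higher, by 1.42 (SE 0.15, adjusted p = 1.79e-10) and 1.01 (SE 0.11, adjusted p = 2.21e-10). The D2 groups ran at 0 to 0.699 (median 0.137) and 0.278 to 1.84 (median 0.705). Lrfn1 was higher in cortex than in D1 ventral striatum (0.65) and was not tested against dorsal striatum. Lrfn3, Lrfn4 and Lrfn5 were called in none of the 7 comparisons.

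The netrin-G ligands Lrrc4c and Lrrc4 and the related Lrrc4b differed by less than 2-fold in every comparison. Lrrc4c was lower in D1 in dorsal (-0.43) and ventral striatum (-0.64), with the dorsal call ending within EM libraries (adjusted p = 0.0972) and the dorsal sign turning with the cortical marker sum as a covariate (0.37, adjusted p = 0.598). Lrrc4 was higher in cortex than in either D1 striatal region (0.33 and 0.53) and lower in D1 than D2 in ventral striatum (-0.23), and Lrrc4b was higher in D1 there (0.43; adjusted p = 0.526 within EM libraries).

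The 2 IL1RAPL genes went opposite ways in dorsal striatum. Il1rapl2 ran at 0.646 to 2.68 CPM (median 1.48) in D1 and 0 to 1.20 (median 0.228) in D2 dorsal striatum, with 10 of 15 D1 libraries above every D2 library, a difference of 1.48 (SE 0.18, adjusted p = 6.55e-08) (1.12 within EM libraries). In ventral striatum it was too low to be tested, at 0.140 to 0.607 CPM (median 0.515) in D1 and 0.0164 to 1.09 (median 0.245) in D2, and the interaction of 1.24 (SE 0.23, adjusted p = 3.55e-04) was not called within EM libraries (0.99, adjusted p = 0.0753) or by edgeR (1.94, adjusted p = 0.0539). D1 prefrontal cortex ran at 0.807 to 3.52 CPM (median 2.19), above every D1 ventral library (1.49, SE 0.12, adjusted p = 6.08e-14) and not called against D1 dorsal striatum (0.28, adjusted p = 0.114). Il1rapl1, which binds Ptprd's product, was lower in D1 than D2 in dorsal (-0.45; 0.61 with the cortical marker sum as a covariate, adjusted p = 0.285) and ventral striatum (-0.53) and lower in cortex than in D1 dorsal (-0.83) and D1 ventral striatum (-0.50).

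CASPR proteins included the gene with the highest dorsal minus ventral difference in both D1 and D2. Cntnap1 ran at 34.5 to 70.9 CPM (median 50.6) in D1 dorsal and 10.9 to 27.7 (median 18.8) in D1 ventral striatum, with no overlap, and at 23.9 to 65.8 CPM (median 46.6) in D2 dorsal and 11.8 to 26.3 (median 18.9) in D2 ventral striatum, where 15 of 16 dorsal libraries lay above all ventral ones. The differences were 1.38 (SE 0.12, adjusted p = 9.39e-12) in D1 and 1.22 (SE 0.13, adjusted p = 4.55e-09) in D2, and 1.36 and 0.87 within EM libraries. D1 prefrontal cortex, at 17.6 to 45.4 CPM (median 21.9), lay between, lower than D1 dorsal striatum by a log2 difference of -1.09 (SE 0.11, adjusted p = 2.38e-11) and higher than D1 ventral striatum by 0.28. Neither receptor comparison was called (0.19 and 0.03). Of 5 markers of oligodendrocytes, which form paranodes with axons, 2 of 3 tested were called higher in dorsal striatum in D1, and 0 of 5 tested were called in D2. Their summed level was 37.7 to 134 CPM (median 56.0) in D1 dorsal, 35.5 to 79.03 (median 42.9) in D1 ventral, 58.4 to 183 (median 94.4) in D2 dorsal and 55.6 to 175 (median 82.7) in D2 ventral striatum, and their part in the Cntnap1 difference was not tested.

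Of the other CASPR genes, Cntnap4 was higher and Cntnap2 and Cntnap5a were lower in cortex than in both D1 striatal regions. Cntnap4 ran at 3.67 to 14.6 CPM (median 4.86) in cortex, against 0.112 to 2.62 (median 0.874) in D1 dorsal, 0.461 to 2.52 (median 1.71) in D1 ventral, 0 to 1.00 (median 0.334) in D2 dorsal and 0 to 1.85 (median 1.21) in D2 ventral striatum. All 19 cortical libraries exceeded every D1 striatal library, by 2.16 (SE 0.15, adjusted p = 1.11e-15) and 1.49 (SE 0.14, adjusted p = 4.26e-12). Markers of GABA interneurons (5 genes), cells known to use Cntnap4, summed to 87.2 to 245 CPM in cortex, 13.6 to 57.7 CPM in D1 dorsal and 10.5 to 36.8 CPM in D1 ventral striatum, with 5 of 5 called higher in cortex in both comparisons; their part was not tested. Cntnap2, of the juxtaparanode, ran in cortex and D1 ventral striatum at 15.7 to 29.8 CPM (median 22.6) against 43.3 to 78.6 (median 52.4) (-1.25, SE 0.08, adjusted p = 3.92e-17), and Cntnap5a ran at 4.23 to 8.90 CPM (median 6.14) against 11.1 to 18.2 (median 14.1) (-1.22, SE 0.09, adjusted p = 1.82e-15). Neither pair of groups overlapped. D1 dorsal, D2 dorsal and D2 ventral striatum ran at 26.2 to 53.8 (median 41.1), 42.6 to 61.3 (median 54.0) and 46.8 to 97.0 (median 59.7) for Cntnap2 and at 0.752 to 12.7 (median 9.30), 1.93 to 11.4 (median 7.51) and 5.95 to 18.1 (median 12.3) for Cntnap5a.

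Of 6 contactins, Cntn4 was higher in dorsal striatum in both D1 and D2. It ran at 4.42 to 14.2 CPM (median 10.7) in D1 dorsal and 3.38 to 7.77 (median 4.92) in D1 ventral striatum, where 14 of 15 dorsal libraries lay above all ventral ones, and at 11.9 to 20.1 CPM (median 15.1) and 4.90 to 13.4 (median 7.76) in the D2 groups. The dorsal minus ventral difference was 1.01 (SE 0.13, adjusted p = 5.78e-08) in D1 and 0.93 (SE 0.12, adjusted p = 6.75e-08) in D2, and both were 1.00 within EM libraries. Cortex ran at 8.81 to 17.9 CPM (median 12.9), above all D1 ventral libraries (1.28, SE 0.09, adjusted p = 3.18e-16). Cntn4 was lower in D1 than D2 in both regions (-0.51 and -0.59). Cntn3 was lower in D1 in ventral striatum (-1.0) and in dorsal against ventral striatum in D2 (-0.95), Cntn2 was lower in D1 ventral striatum than in D1 dorsal striatum (0.69) and cortex (0.79), Cntn5 was higher in dorsal striatum in D1 (0.51) and lower in cortex than there (-0.94), and Cntn6 was higher in dorsal striatum in D2 (0.61). Cntn1, the partner of Cntnap1's product at paranodes, was called between receptors in ventral striatum (-0.27) and in cortex against ventral striatum (0.34).

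SynCAM proteins bind each other across the cleft, and Cadm1 and Cadm2 differed between regions in opposite directions. Cadm1 ran at 14.3 to 38.3 CPM (median 25.5) in D2 ventral and 4.25 to 14.95 (median 7.67) in D2 dorsal striatum, where 13 of 14 ventral libraries exceeded every dorsal one, and at 13.7 to 34.1 CPM (median 22.6) and 7.66 to 16.99 (median 12.7) in the D1 groups. The dorsal minus ventral difference was -1.60 (SE 0.16, adjusted p = 2.91e-10) in D2 and -0.89 (SE 0.12, adjusted p = 1.98e-07) in D1; cortex ran at 10.5 to 29.2 (median 17.3). Cadm1 was higher in D1 in dorsal striatum (0.58) and not called in ventral striatum (-0.13), an interaction of 0.71 (SE 0.20, adjusted p = 0.0333) that was called in 11 of 17 settings and not within EM libraries (adjusted p = 0.0794).

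Cadm2 ran at 57.2 to 132 CPM (median 79.1) in D1 dorsal and 25.2 to 63.8 (median 36.8) in D1 ventral striatum, with 11 of 15 dorsal libraries above every ventral one, a difference of 1.09 (SE 0.14, adjusted p = 1.70e-07), and at 59.6 to 189.7 CPM (median 102) and 35.5 to 124 (median 57.5) in the D2 groups (0.67); cortex ran at 42.9 to 101 (median 71.7). Cadm4 was higher in D1 in ventral striatum, at 4.76 to 9.15 CPM (median 7.11) against 1.06 to 6.77 (median 2.42), with 8 of 15 D1 libraries above every D2 library, by 1.19 (SE 0.19, adjusted p = 7.30e-06), or 0.98 within EM libraries. With the cortical marker sum as a covariate this was 0.78 and no longer called (adjusted p = 0.0613). In dorsal striatum it ran at 3.30 to 12.3 CPM (median 8.27) and 1.09 to 9.47 (median 5.05) and differed by 0.84, which was not called within EM libraries (adjusted p = 0.167) and had the other sign without a call with the covariate (-0.02, adjusted p = 0.99), and it was highest in cortex at 7.82 to 24.7 (median 16.3). Cadm3 differed by less than 2-fold throughout and was called between receptors in dorsal striatum (0.30), between regions in D1 (0.33) and in cortex against D1 ventral striatum (0.26).

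Other genes of the pathway were counted from a list of 52 symbols (scaffolds, latrophilins, teneurins, regulators and immunoglobulin adhesion proteins), of which 45 were listed. Their values come from all libraries without covariates, and values within EM libraries or with a covariate are not given for them. Over all genes the dorsal receptor calls went from 2871 to 1389 within EM libraries and to 148 with the cortical marker sum as a covariate. In dorsal striatum 9 of 43 tested were higher (12.8% of all genes) and 6 lower (13%) in D1, led by the scaffold Shank1 at 1.32 (SE 0.18, adjusted p = 4.71e-07) and the neurexin ligand Igsf21 at 1.07 (SE 0.15, adjusted p = 8.28e-07), and by the scaffold Dlg2 at -0.42 (SE 0.10, adjusted p = 0.00264) and L1cam at -0.40 (SE 0.10, adjusted p = 0.00286) among the lower ones. In ventral striatum 12 of 44 were higher (24.1% of all genes) and 9 lower (23.6%), with Mdga1, which binds neuroligins, at 0.79 (SE 0.22, adjusted p = 0.00442), the latrophilins Lphn1 at 0.56 (SE 0.14, adjusted p = 0.00126) and Lphn2 at -0.63 (SE 0.09, adjusted p = 2.15e-06), and the scaffold Lin7c at -0.50 (SE 0.11, adjusted p = 4.70e-04). Interaction calls were 4 higher (1.93% of all genes) and 0 lower (0.707%) of 44 by limma, led by Igsf21 at 1.05 (SE 0.24, adjusted p = 0.00576) and the calsyntenin Clstn2 at 0.82 (SE 0.19, adjusted p = 0.00463).

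Between regions, 11 of 43 of these other genes were higher (10.1% of all genes) and 12 lower (24.5%) in dorsal striatum in D1. In D2, 13 of 43 were higher (7.93%) and 11 lower (20.6%). The scaffold Lin7a was the lowest in dorsal striatum in both, at -1.14 (SE 0.11, adjusted p = 1.87e-10) in D1 and -1.27 (SE 0.13, adjusted p = 1.75e-09) in D2. It was followed by the teneurin Odz1 in D1 (-0.90, SE 0.13, adjusted p = 8.10e-07) and Shank1 in D2 (-1.25, SE 0.14, adjusted p = 9.29e-09). The highest were Igsf21 (1.00, SE 0.17, adjusted p = 1.06e-05) and Lphn2 (0.66, SE 0.09, adjusted p = 5.61e-07) in D1, and Ntrk3, a receptor that binds a LAR-type phosphatase, (0.75, SE 0.12, adjusted p = 3.85e-06) and Lphn1 (0.74, SE 0.16, adjusted p = 4.63e-04) in D2. In cortex 18 of 45 were higher (32.3% of all genes) and 15 lower (22.5%) than in D1 dorsal striatum. Against D1 ventral striatum 18 of 45 were higher (27.7%) and 17 lower (35.1%). The glypican Gpc4, a heparan sulfate proteoglycan, led at 2.24 (SE 0.13, adjusted p = 6.44e-19) and 2.68 (SE 0.12, adjusted p = 1.13e-22), followed by Clstn2 at 1.84 (SE 0.13, adjusted p = 1.51e-15) and 2.41 (SE 0.11, adjusted p = 1.49e-22). Shank3 was the lowest in cortex at -1.04 (SE 0.23, adjusted p = 1.97e-04) and -1.22 (SE 0.15, adjusted p = 4.40e-09), followed by the delta glutamate receptor Grid1 against dorsal striatum (-0.98, SE 0.14, adjusted p = 4.76e-08) and Lin7c against ventral striatum (-1.03, SE 0.08, adjusted p = 4.85e-15).

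Exon bases shared with another gene in GENCODE M21 were found for 14 of the 51 genes, and over 10% of the exon bases were shared in 3 of them (Nlgn3, Lrrtm4 and C1ql3). The counting program and its use of strand are not given in the sources used here, so reads over these bases may have been counted for either gene. Other calls that ended within EM libraries included those of Il1rapl1 and Cadm3 between receptors in dorsal striatum (adjusted p = 0.331 and 0.217), of Cntn1 between receptors in ventral striatum (adjusted p = 0.0625), of Nlgn3 and Lrrtm2 between regions in D2 (adjusted p = 0.226 and 0.0965), and of Cntnap5a in cortex against D1 dorsal striatum (adjusted p = 0.135). Calls also ended when 1 library was left out for Lrrtm1 between regions in D2 (adjusted p = 0.0642 without D2 ventral striatum replicate 2), and for Lrrc4 and Flrt1 between receptors in ventral striatum (adjusted p = 0.0612 and 0.0834 without D1 ventral striatum replicate 6, and 0.0521 for Lrrc4 without D2 ventral striatum replicate 2). The same held for Nlgn1 between receptors in dorsal striatum (adjusted p = 0.0549 without D1 dorsal striatum replicate 4) and for the Cadm1 interaction (adjusted p = 0.0502 without D1 ventral striatum replicate 6).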

How the data were processed

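Ribosome-bound mRNA of 79 libraries, each from 3 pooled mice, was amplified (Ovation RNA-Seq System V2) and sequenced as read pairs, per the labels' protocols; no molecular identifiers are mentioned. The authors deposited CPM per gene, a gene's read count scaled to a common library total. Per the submitters' processing notes, Trim Galore 0.4.2, cutadapt 1.9.1, FastQC, HISAT2 and GRCm38 were used; the counting program, its annotation and its use of strand are not given in the sources used here. The deposited CPM were whole multiples of 1 read (100% of values within 0.05 of a whole read), so reads were recovered: 7.35 to 30.8 M in genes per library. Amplified cDNA reads are not independent molecules.

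Groups came from the labelled receptor and region, and 0 columns were unmatched. Values were compared as log2(CPM + 0.5) with limma 3.58.1 in R 4.3.3, fitting only the groups compared (the 4 striatal groups for the interaction), over genes with at least 1 CPM in as many libraries as the smaller group. A gene was called at a Benjamini-Hochberg adjusted p under 0.05 over all genes tested; 2-fold means that the log2 difference was 1 or more, either way. A marker of the cortical list is not reported here and was left out of its sum. The 51 genes, the marker and partner lists and the tests were chosen with earlier results of these data known. Genes given in full were up to 5 called in each direction that differed at least 2-fold, with the higher group's mean reaching 1 CPM, by size, in each comparison (for the interaction, the 5 largest called). Alternatives were other scalings, pseudocounts and filters, edgeR 4.0.16 on the recovered reads, covariates, EM libraries alone and left-out libraries. Scripts were tested on simulated data. Lengths and loci came from GENCODE M21 (GRCm38), and promoters from RefSeq (GRCm38.p6).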

Additional observations from a re-analysis of the deposited data

Results flagged for a closer look

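The D1 minus D2 difference was larger in dorsal than in ventral striatum by an interaction test (limma, adjusted over all genes) for 7 of 48 adhesion genes. Of all genes 2.64% were called, and 1.93% were called larger dorsally. For the low ones of the 7 the filter bears on this direction, so the count and its direction are a description only. On the log2 scale the difference between regions was 1.49 for Slitrk1, 1.46 for C1ql3, 1.39 for Cbln1, 1.38 for Cbln4, 1.24 for Il1rapl2, 1.13 for Cbln2 and 0.71 for Cadm1. In dorsal striatum, Slitrk1, C1ql3, Cbln1, Il1rapl2, Cbln2 and Cadm1 were called higher in D1, and Cbln4 was too low there to be tested. All 4 secreted genes among the 7 (Cbln1, Cbln2, Cbln4 and C1ql3) had medians under 5 CPM in each striatal group.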

How the results depend on the processing

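Between D1 and D2, 5 adhesion genes were called in dorsal striatum with the cortical marker sum as a covariate (1.33% of all genes). In ventral striatum 10 were called with that covariate (12.5%) and 9 when the covariate was the share of reads in genes (10.7%). For the interaction, 4 were called by edgeR (2.53%) and 4 within EM libraries (1.95%). Leaving out single libraries gave 25 to 27 genes for the dorsal receptor comparison (24.7% to 32.4% of all genes) and 26 to 27 for the ventral one (45.8% to 48.3%). For region it gave 21 to 26 in D1 (32.3% to 38.2%) and 14 in D2 (27.0%). For cortex it gave 28 to 30 against dorsal (54.3% to 56.8%) and 34 against ventral striatum (61.8% to 62.8%). For the interaction it gave 6 to 7 (2.43% to 2.77%). All but the library with the highest cortical markers in D2 ventral striatum (replicate 2) were chosen after seeing the data. Scaling to reads in genes gave 10 higher and 17 lower in D1 than in D2 in ventral striatum, where 6 and 22 are reported. The split of all genes then went from 2751 and 2692 to 3702 and 1898. For region in D2, edgeR and quantile normalization each gave 17 higher and 5 lower, where 10 and 5 are reported. Over all genes edgeR gave 1357 higher and 1325 lower and quantile normalization 1444 and 1479, where 887 and 2302 are reported. The median of all genes lay at -0.12 in the dorsal minus ventral comparisons. The 44 results chosen by the rule for named genes had 635 values under alternatives, of which 628 kept direction and call, 7 lost the call and 0 reversed. These 44 were chosen as the largest called differences in the same data, so most were likely to be kept, and the total is a description only. The cortical marker sum was not used as a covariate in the cortex comparisons. Elsewhere 21 values kept the call with it and 4 lost it (Slitrk1, Cbln1 and Cbln2 between receptors in dorsal striatum and Cadm4 in ventral striatum). Of all 24 dorsal receptor calls, 8 took the other sign, without a call, with the cortical marker sum as a covariate. The cause was not tested. No fit by pairs was made: apart from JAG13 and JAG13bis the library names share no number within a name code, their numbers run on from region to region, and the labels do not say which libraries came from the same mice.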
